A study of Mus musculus with 12 samples.

Results

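Chemokine ligands and receptors were examined in RNA from mouse mammospheres, the floating spheres that mammary cells form in suspension culture. The set held every gene of the deposited table whose name starts with Ccl, Cxcl, Ccr or Cxcr followed by a digit, Ccrl names left out, together with Cx3cl1, Cx3cr1, Xcl1 and Xcr1. It came to 58 of 23406 genes, 38 ligands and 20 receptors. The 4 groups of 3 libraries came from wild-type C57BL/6J mice (WT) and mice of the same strain without p66Shc (KO, p66-/-), each at 2 months, called young here, and at 12 months, called aged. All mammospheres were at passage 2, and p66Shc is the longest protein made from Shc1. The design text speaks of 3 young and 3 aged mice, but the labels do not tie a library to an animal or a culture. The p-values below therefore measure the spread between these libraries, which may be technical. Shc1, whose reads were summed over its isoforms, had 296 ± 25.3 CPM (reads scaled to a common library size, mean and SD, n = 3) in young WT, 211 ± 8.44 in aged WT, 208 ± 0.329 in young KO and 170 ± 7.60 in aged KO, so it checks the labels only in part.

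Chemokines are small secreted proteins that guide cells along a concentration gradient through receptors coupled to G proteins. CXC ligands with a Glu-Leu-Arg (ELR) sequence ahead of their first cysteines, such as Cxcl1, attract neutrophils through Cxcr2, and the interferon-induced Cxcl9 and Cxcl10 attract T cells through Cxcr3. CC ligands such as Ccl2 attract monocytes through Ccr2, and Ccl3 acts on Ccr1. In the mammary gland, chemokines are known for drawing in the macrophages and eosinophils that take part in duct growth, and Ccl28 for drawing antibody-secreting cells to the lactating gland.

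The libraries held 31845169 to 109079737 reads in genes, the highest being replicate 3 of aged KO, and 3 reads stood for 0.029 to 0.0859 CPM. Markers of several cell types differed between the groups. The summed level of 5 fibroblast markers was 5527 to 5866 CPM in aged WT. It was 8860 to 9256 in young WT, 8419 to 9309 in young KO and 7569 to 8596 in aged KO. The summed level of 5 luminal epithelial markers was 2919 to 3052 CPM in aged WT and 237 to 408 in the other groups. In aged KO, 4 endothelial markers summed to 224 to 237 CPM and 5 mast cell markers to 193 to 209, against 56.7 to 62.5 and 26.2 to 28.7 in young KO and 90.5 to 103 and 102 to 123 over both WT groups. In bulk RNA, fewer cells of a type and less RNA per cell cannot be told apart.

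Of the 58 genes, 31 passed the filter of a mean of 0.5 CPM over the 12 libraries, 25 ligands and 6 receptors. Their values were tested as log2(CPM + 0.5) with limma, with Benjamini-Hochberg adjustment over all 13961 genes tested, and a gene was called at an adjusted p under 0.05. This scale understates the changes of genes with few reads. Cxcl3 and Cxcl13 had a group mean above 0.5 CPM only in aged KO and Cxcl17 only in aged WT. Ccl20 and Cxcr6 had one only in the aged groups, and Ccr2 only in the young groups. The filter thus admitted these genes through the groups where they were high. Their calls, and their places in the counts below, are in part given by the filter. The 27 others comprised 21 with few reads and 6 with no read, namely Ccl21a, Ccl21b, Ccl21c, Ccl26, Ccl27b and Xcl1. Ccl21a, Ccl21b and Ccl21c are near-identical copies, as are Ccl27a and Ccl27b, so their counts are uncertain. Per kilobase of exonic length, Ccl2 was the most abundant ligand in every group, with 636 ± 38.1 CPM per kb in young WT, 422 ± 33.5 in aged WT, 531 ± 19.8 in young KO and 949 ± 43.8 in aged KO. Ccl7 and Ccl8 held the next places, Ccl7 ahead in the young groups and Ccl8 ahead in the aged groups. Cxcl1 stood at place 9 in young WT, 6 in aged WT, 13 in young KO and 4 in aged KO, where it took 8.41% ± 0.752 of the ligand sum per kb.

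Between 2 and 12 months, chemokine genes changed in both genotypes. Of the 31 tested members, 11 were called higher and 5 lower in both genotypes, 4 were called in opposite directions, 9 were called in 1 genotype and 2 in neither. No such split was made over all tested genes, so it is a description and not a trait of chemokine genes. In WT, 23 of the 31 tested members were called with age, 14 higher and 9 lower, where 58.0% of all tested genes were called, 22.3% higher and 35.6% lower. In KO, 26 were called, 20 higher and 6 lower, against 67.0% of all tested genes, 32.9% higher and 34.2% lower. The median log2 change over the members was 0.00 in WT and 0.61 in KO, beside −0.08 and −0.02 over all tested genes. The age effects themselves differed between genotypes for 25 members, against 57.7% of all tested genes. With its sign, the KO effect lay above the WT effect for 15 and below for 10, against 31.4% and 26.2% of all tested genes. Ccl3, Ccl4 and Ccr2, which fell more in KO, count as below, and Ccr1, whose fall was larger in WT, as above. At 12 months, KO differed from WT in 25 members, 16 higher and 9 lower, against a background of 70.2%, 31.3% higher and 38.9% lower. At 2 months, 10 members differed, 2 higher and 8 lower, against 16.1%, 1.86% higher and 14.2% lower. The 4 two-group comparisons share libraries and are not independent of each other.

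**Figure D1:**
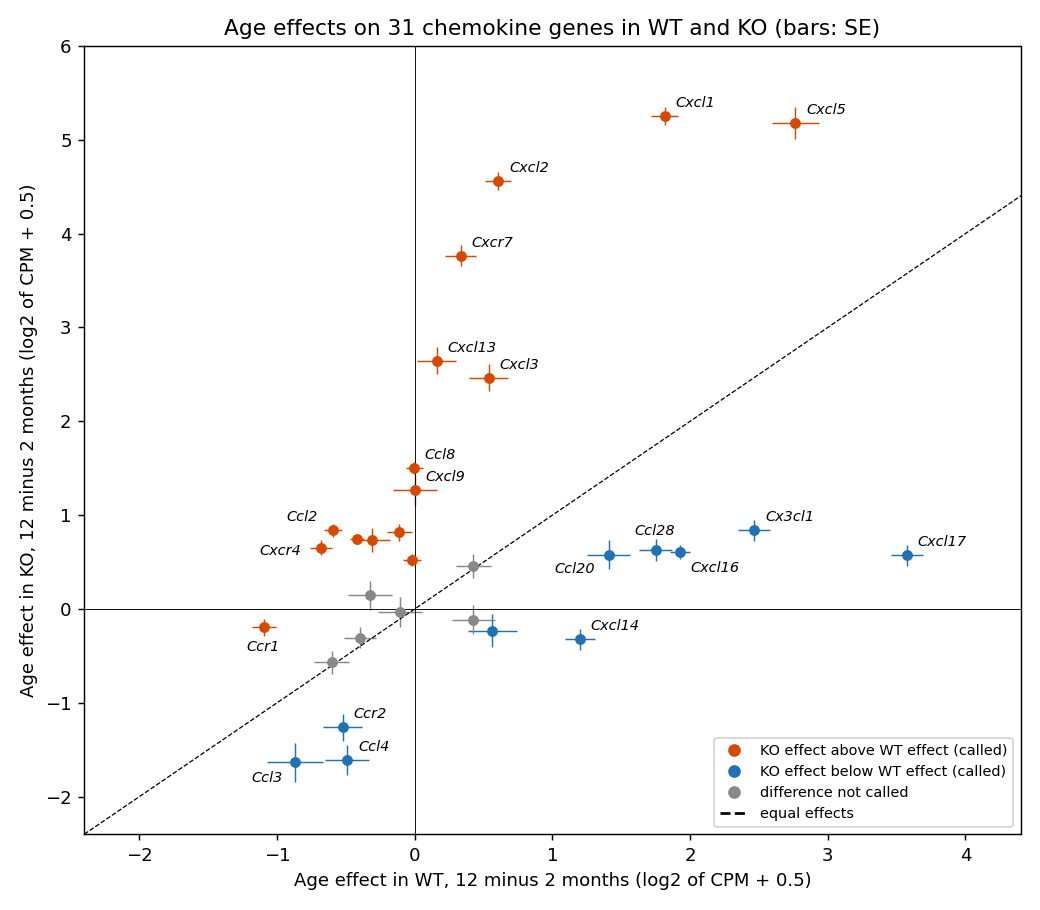
Age effect in KO (vertical axis) against that in WT (horizontal axis) for the 31 tested chemokine genes, as differences of log2(CPM + 0.5) between 12 and 2 months, with bars of 1 SE. By the interaction test, orange points had a KO effect above the WT effect, sign included, and blue points one below it. Grey points were not called, and the dashed line marks equal effects. Cxcl1, Cxcl2, Cxcl5 and Cxcr7 lie above 3 on the KO axis, and Cxcl17 and Cx3cl1 lie far right and near 1 or below on it.

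The ELR ligands that attract neutrophils were Cxcl1, Cxcl2, Cxcl3 and Cxcl5. All 4 rose with age in both genotypes, and all 4 rose more in KO. They lie together on mouse chromosome 5 with the platelet chemokine genes Ppbp and Pf4, from Cxcl5 at 90759299 to Cxcl2 ending at 90905938 (mm10). The 250 bases before the starts of Cxcl3, Cxcl1 and Cxcl2 are shown because these genes moved together and share a run of letters there. Cxcl5 moved with them, but no such window was available for it, so its letters were not examined. The sequences are from RefSeq, build GRCm38.p6, plus strand, at chr5:90785851-90786100, chr5:90890995-90891244 and chr5:90903649-90903898. Capitals mark matches to GGGNNTTTCC on either strand, letters of the kind that NF-kB proteins are known to bind.
Cxcl3: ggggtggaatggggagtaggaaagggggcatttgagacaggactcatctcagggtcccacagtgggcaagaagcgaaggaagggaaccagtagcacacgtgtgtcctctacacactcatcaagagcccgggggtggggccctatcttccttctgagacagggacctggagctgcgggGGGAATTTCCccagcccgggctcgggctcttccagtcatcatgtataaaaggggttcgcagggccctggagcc
Cxcl1: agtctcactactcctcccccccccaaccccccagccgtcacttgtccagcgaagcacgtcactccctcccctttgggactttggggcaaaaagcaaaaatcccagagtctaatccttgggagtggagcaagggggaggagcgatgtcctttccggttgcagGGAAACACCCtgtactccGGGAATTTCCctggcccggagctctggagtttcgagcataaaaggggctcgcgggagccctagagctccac
Cxcl2: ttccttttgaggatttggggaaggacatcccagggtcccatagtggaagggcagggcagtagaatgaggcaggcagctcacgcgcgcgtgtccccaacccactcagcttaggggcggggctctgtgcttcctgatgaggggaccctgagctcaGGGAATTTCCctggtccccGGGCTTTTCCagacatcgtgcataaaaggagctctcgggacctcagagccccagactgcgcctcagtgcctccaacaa
The run GGGAATTTCC stands in all 3, with its first base 73 bases before the start in Cxcl3, 71 in Cxcl1 and 97 in Cxcl2. Cxcl1 and Cxcl2 each hold another match. GGGNNTTTCC was found in 464 of 32851 promoter windows of this length, or 1.41%. Counted by gene, it was found in 6 of the 43 members with a window. Some members have several windows, so the 2 counts are of unlike units. The other members with it were Ccl20, Ccr3 and Ccl9. Like Cxcl5, the tested members Ccl2, Ccl7, Ccl11, Ccl4, Cxcl16 and Cxcl17 had no window and are outside these counts and the medians below. Of 24 tested members with a window, the 5 with the letters had age effects in KO from −0.57 to 5.25 log2 with a median of 2.46, and the 19 without them from −1.64 to 3.76 with a median of 0.46. Of the 5, Cxcl1, Cxcl2, Cxcl3 and Ccl20 rose and Ccl9 fell. Of the 5, 3 are the neighbours shown above, so these medians are a description. A match is a run of letters and was not tested as a binding site.

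Cxcl1, also called KC, was the most abundant ELR ligand. It had 14.5, 16.6 and 18.6 CPM in the 3 libraries of young WT and 56.1, 64.1 and 57.8 in aged WT. It had 8.73, 8.46 and 9.82 CPM in young KO and 322, 400 and 368 in aged KO. No 2 groups overlapped, and the libraries of aged KO were all far above the rest. The mean rose 3.58-fold with age in WT (log2 change 1.81 ± 0.10 SE, limma adjusted p = 3.58e-09) and 40.4-fold in KO (5.25 ± 0.10, adjusted p = 7.37e-13). The age effect was larger in KO by 3.44 ± 0.14 log2 (adjusted p = 6.3e-10).

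Cxcl2, or MIP-2, had 5.67, 4.53 and 4.84 CPM in young WT, 7.62, 8.51 and 7.50 in aged WT, 2.81, 3.17 and 2.73 in young KO, and 75.5, 81.9 and 82.1 in aged KO. The 4 groups again did not overlap. Its mean rose 1.57-fold in WT (0.61 ± 0.09, adjusted p = 8.18e-05) and 27.5-fold in KO (4.56 ± 0.09, adjusted p = 8.21e-13), a difference of 3.95 ± 0.13 log2 (adjusted p = 1.48e-10). Cxcl5 had 4.14, 3.67 and 5.43 CPM in young WT, 32.3, 39.7 and 26.9 in aged WT, 1.35, 0.950 and 1.31 in young KO, and 58.5, 73.8 and 52.5 in aged KO. It was the ELR ligand with the largest rise in WT, and its groups did not overlap either. The log2 change was 2.77 ± 0.17 in WT (adjusted p = 1.11e-08) and 5.18 ± 0.17 in KO (adjusted p = 4.27e-11), a 7.46-fold and a 51.1-fold rise of the mean. Cxcl3 had few reads, with 0.074, 0.185 and 0.252 CPM in young WT, 0.413, 0.505 and 0.487 in aged WT, 0.081, 0.065 and 0.051 in young KO, and 2.29, 3.31 and 2.36 in aged KO. Its young groups overlapped and both aged groups stood above them. It rose by 0.54 ± 0.14 log2 in WT (adjusted p = 0.00525) and 2.46 ± 0.14 in KO (adjusted p = 6.24e-09), and edgeR on the recovered reads, without the pseudocount of 0.5, gave 1.49 and 5.28.

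**Figure D2:**
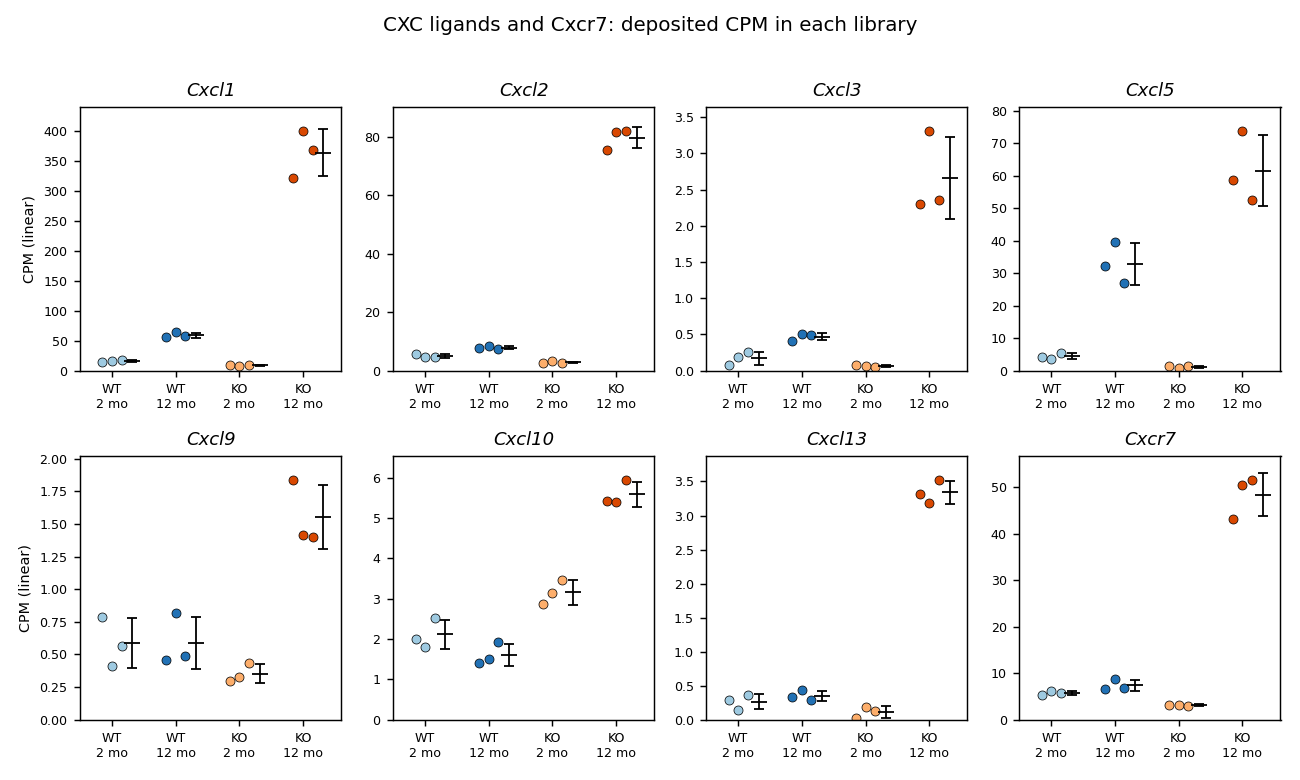
Deposited CPM (linear axes from 0) of the ELR ligands Cxcl1, Cxcl2, Cxcl3 and Cxcl5, of Cxcl9, Cxcl10 and Cxcl13, and of the receptor Cxcr7 in each of the 12 libraries. Points are libraries, and the bars give the mean and SD of 3. In every panel the 3 libraries of aged KO lie above all 9 others.

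Summed, the ELR ligands reached 458 to 559 CPM in aged KO, 92.6 to 113 in aged WT, 24.4 to 29.1 in young WT and 12.7 to 13.9 in young KO. Markers of neutrophils, the cells that these ligands attract, were low. Of 5 such markers in the table only S100a8, which epithelial cells can also make, passed the filter, with 39.3 ± 3.53 CPM in aged KO and 9.19 ± 1.28 in young KO. The list summed to 37.5 to 45.6 CPM in aged KO, 19.2 to 24.4 in aged WT, 12.8 to 13.3 in young WT and 8.38 to 10.9 in young KO. The granule enzymes Mpo and Elane had 63 and 22 reads over all 12 libraries, and the receptor Cxcr2 had 25. All 4 endothelial and all 5 mast cell markers were called higher with age in KO, as the ELR ligands were. In WT, where all 4 ELR ligands also rose, 2 endothelial markers rose and 1 fell. Of the mast cell markers, 1 rose and 4 fell there. The part of these cell types in the ELR result was not tested.

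Ligands that interferon induces, Cxcl9 and Cxcl10, rose with age in KO and were not called with age in WT, and the difference between genotypes was called for both. Cxcl9, the ligand known as MIG, had 0.785, 0.410 and 0.568 CPM in young WT, 0.461, 0.818 and 0.487 in aged WT, 0.297, 0.324 and 0.437 in young KO, and 1.84, 1.42 and 1.40 in aged KO. Both WT groups overlapped, and aged KO stood above every other library. Its log2 change with age was 1.26 ± 0.16 in KO (adjusted p = 1.34e-05) and 0.00 ± 0.16 in WT (adjusted p = 0.998), a difference of 1.26 ± 0.23 (adjusted p = 0.000375). Cxcl10, or IP-10, had 2.01, 1.80 and 2.52 CPM in young WT, 1.40, 1.51 and 1.92 in aged WT, 2.87, 3.13 and 3.47 in young KO, and 5.43, 5.39 and 5.94 in aged KO. Both KO groups lay above all WT libraries, and aged KO lay highest. It rose by 0.74 ± 0.13 log2 in KO (adjusted p = 0.000175). Its change in WT of −0.31 ± 0.13 was not called (adjusted p = 0.0513), but was called lower without replicate 2 of young WT (adjusted p = 0.0249) or without replicate 3 of aged WT (adjusted p = 0.0189). The third ligand of this type, Cxcl11, had 4 reads in all. C57BL/6 mice are known to carry a Cxcl11 allele that makes no protein.

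Cxcl10 is the tested interferon-type ligand whose promoter window holds the letters GAAANNGAAA, a run that interferon regulatory factors are known to bind. Its 250 bases before the start, from RefSeq GRCm38.p6, minus strand, at chr5:92348890-92349139, are shown with the match in capitals.
Cxcl10: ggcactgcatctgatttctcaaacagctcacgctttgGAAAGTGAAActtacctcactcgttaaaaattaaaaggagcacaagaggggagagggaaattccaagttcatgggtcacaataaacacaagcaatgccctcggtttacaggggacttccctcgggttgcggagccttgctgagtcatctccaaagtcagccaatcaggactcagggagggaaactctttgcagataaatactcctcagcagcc
The match GAAAGTGAAA begins 213 bases before the start. GAAANNGAAA stood in 978 of 32851 windows, or 2.98%. Counted by gene and not by window, it stood in 3 of 43 members. The others were Ccl19, which had 8 reads, and Cxcl14, which fell with age in KO. Of 8 interferon factor genes, 7 rose and 1 fell with age in KO, while in WT none rose and 6 fell. Over all tested genes, 32.9% rose and 34.2% fell in KO, and 22.3% rose and 35.6% fell in WT. Irf7, which drives type I interferon genes, had 26.5 ± 4.42 CPM in young WT, 18.5 ± 1.93 in aged WT, 20.6 ± 2.47 in young KO and 49.0 ± 11.7 in aged KO (SD, n = 3). Irf8, a factor of myeloid cells, was the member that fell in KO, by 1.01 log2 (adjusted p = 3.44e-05). The list was chosen with earlier results of these data known.

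Cxcl13 and Cxcl12, ligands that organise lymphoid and stromal tissue, also rose with age in KO. Cxcl13, which attracts B cells through Cxcr5, had 0.294, 0.144 and 0.358 CPM in young WT, 0.334, 0.433 and 0.286 in aged WT, 0.027, 0.194 and 0.129 in young KO, and 3.31, 3.19 and 3.52 in aged KO. The first 3 groups overlapped in part, and aged KO stood apart, the group through which this gene passed the filter. Its log2 change was 2.65 ± 0.14 in KO (adjusted p = 3.05e-09) and 0.16 ± 0.14 in WT (adjusted p = 0.352), a difference of 2.49 ± 0.20 (adjusted p = 2.14e-07). Without the pseudocount of 0.5, edgeR gave 4.76 in KO. B cell markers were near 0, with a sum of 0.152 to 0.212 CPM in aged KO over 4 genes. Cxcl12, also called SDF-1, is a stromal ligand of Cxcr4 and Cxcr7. It had 79.9, 72.0 and 76.7 CPM in young WT, 75.0, 70.5 and 66.1 in aged WT, 78.1, 76.7 and 68.0 in young KO, and 117, 151 and 128 in aged KO. The first 3 groups overlapped and aged KO lay above them, 1.77-fold over young KO (0.82 ± 0.09 log2, adjusted p = 2.77e-06). In WT the change of −0.11 ± 0.09 was not called (adjusted p = 0.301). The fibroblast markers, genes of cells that make Cxcl12, were split in KO, where 2 of 5 rose with age and 3 fell. All 5 fell with age in WT, and their part in the level of Cxcl12 was not tested.

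The monocyte-attracting CC ligands Ccl2, Ccl7 and Ccl8 made up most of the chemokine RNA, and rose with age in KO. Ccl2 and Ccl7 fell with age in WT. They lie with Ccl11 and Ccl12 on chromosome 11, from Ccl2 starting at 82035577 to Ccl8 ending at 82116799. Ccl2, or MCP-1, had 684, 717 and 770 CPM in young WT, 497, 507 and 437 in aged WT, 605, 581 and 626 in young KO, and 1049.8, 1137.7 and 1052.9 in aged KO. The 4 groups did not overlap. The log2 change was −0.59 ± 0.07 in WT (adjusted p = 4.56e-06) and 0.84 ± 0.07 in KO (adjusted p = 1.43e-07), a difference of 1.43 ± 0.09 (adjusted p = 3.84e-08). Ccl7, or MCP-3, had 224, 208 and 221 CPM in young WT, 163, 166 and 159 in aged WT, 196, 185 and 199 in young KO, and 322, 315 and 337 in aged KO. Its order of groups was that of Ccl2, with no overlap. It fell by 0.42 ± 0.05 log2 in WT (adjusted p = 7.49e-06) and rose by 0.74 ± 0.05 in KO (adjusted p = 2.61e-08).

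Ccl8, or MCP-2, had 119, 113 and 121 CPM in young WT, 123, 107 and 122 in aged WT, 83.2, 87.2 and 85.7 in young KO, and 233, 236 and 259 in aged KO. Both WT groups overlapped, young KO lay below them and aged KO above. Its change in KO was 1.50 ± 0.06 log2 (adjusted p = 3.06e-10) and in WT −0.00 ± 0.06 (adjusted p = 0.955). The eosinophil ligand Ccl11, or eotaxin, had 51.6 to 58.6 CPM in young WT, 54.0 to 56.5 in aged WT, 47.2 to 50.8 in young KO and 66.0 to 74.6 in aged KO. It rose by 0.53 ± 0.06 log2 in KO (adjusted p = 7.44e-06), a smaller change than those of Ccl2, Ccl7 and Ccl8. Ccl12, a mouse ligand of Ccr2, had 1.61 to 3.52 CPM over all libraries and was called only in the genotype comparison at 12 months, higher in KO by 0.57 ± 0.16 (adjusted p = 0.00528). Its change in WT of −0.32 was called without replicate 2 of aged KO (adjusted p = 0.0473), as was its difference between genotypes (0.64, adjusted p = 0.014). Macrophage and monocyte markers went the other way from Ccl2 in KO. Of 8 tested, 7 fell with age in KO and 1, Cd14, rose, and the 9 genes in the table summed to 919 to 1010 CPM in young KO and 321 to 532 in aged KO. Skeletal muscle markers moved with Ccl2 and Ccl7, summing to 786 to 915 CPM in young WT, 154 to 174 in aged WT, 217 to 275 in young KO and 773 to 1464 in aged KO. Of 3 tested, 3 fell in WT and 2 rose in KO. The part of these cells in the result was not tested.

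**Figure D3:**
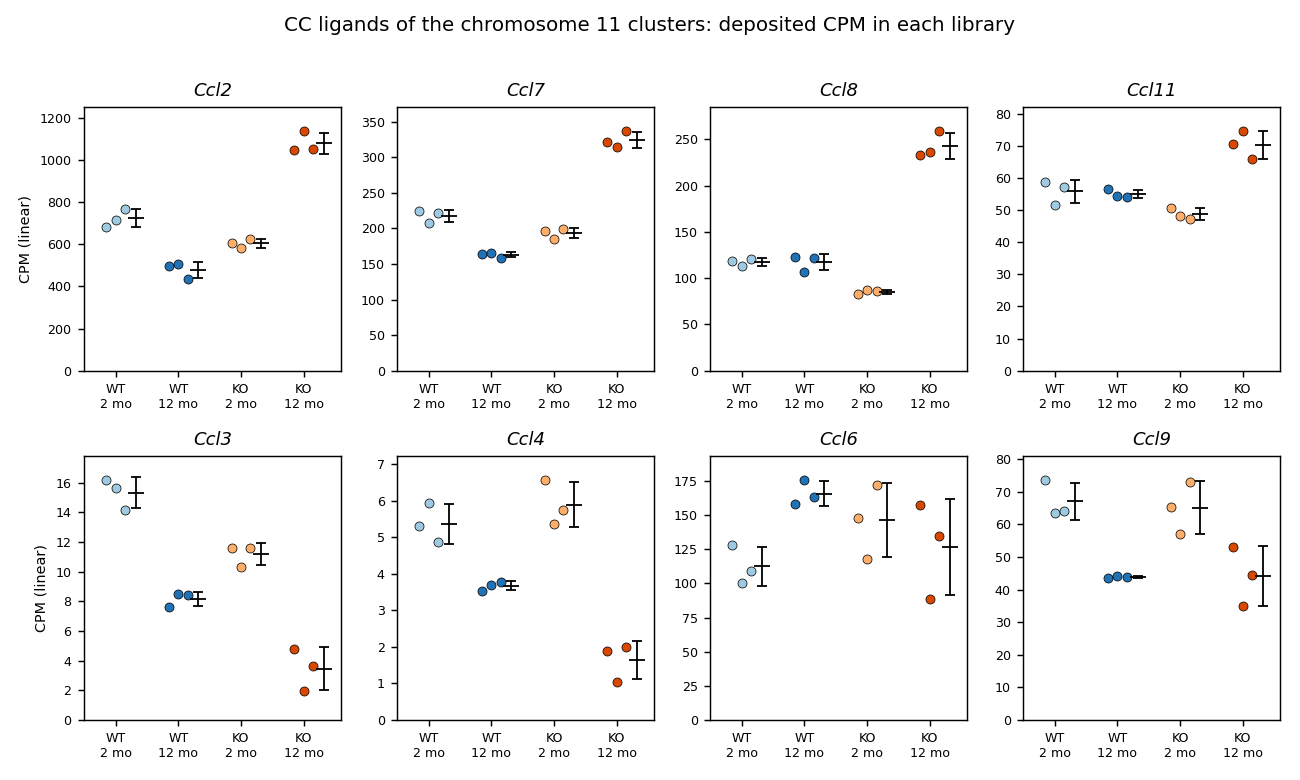
Deposited CPM (linear axes from 0) of 8 CC ligands of chromosome 11 in each of the 12 libraries, with the mean and SD of 3 beside the points. Ccl2, Ccl7, Ccl8 and Ccl11 (top) were highest in the 3 libraries of aged KO, and Ccl3 and Ccl4 (bottom) were lowest there.

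The CC ligands Ccl3 and Ccl4, which attract monocytes and T cells, fell with age in both genotypes. Ccl3, or MIP-1 alpha, had 16.2, 15.7 and 14.2 CPM in young WT, 7.61, 8.49 and 8.41 in aged WT, 11.6, 10.3 and 11.6 in young KO, and 4.79, 1.91 and 3.65 in aged KO. The 4 groups did not overlap, and aged KO was lowest. The log2 change with age was −0.87 ± 0.20 in WT (adjusted p = 0.00241) and −1.64 ± 0.20 in KO (adjusted p = 1.05e-05). Ccl4, or MIP-1 beta, had 5.32, 5.95 and 4.86 CPM in young WT, 3.54, 3.70 and 3.78 in aged WT, 6.57, 5.36 and 5.76 in young KO, and 1.89, 1.04 and 2.00 in aged KO. The young groups overlapped, and aged KO again lay lowest. The change was −1.61 ± 0.16 log2 in KO (adjusted p = 1.15e-06) and −0.49 ± 0.16 in WT (adjusted p = 0.0173), a difference of −1.12 ± 0.22 (adjusted p = 0.000847). The fall in WT lost its call without replicate 2 of young WT (adjusted p = 0.0607) or without replicate 1 of aged WT (adjusted p = 0.0514). For Ccl3 the difference between genotypes of −0.77 ± 0.29 (adjusted p = 0.0357) was not called without replicate 3 of young WT, replicate 2 or 3 of aged WT, or replicate 1 or 3 of young KO (adjusted p = 0.0681 to 0.0737), nor without a filter (adjusted p = 0.0647). Without replicate 2 of aged KO it was −0.45 and still called.

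Ccl9 and Ccl6, abundant mouse ligands of Ccr1, did not follow Ccl3 and Ccl4 in full. Ccl9 had 63.4 to 73.6 CPM in young WT, 43.6 to 44.3 in aged WT, 56.9 to 73.1 in young KO and 34.8 to 53.0 in aged KO. The log2 change with age was −0.60 ± 0.13 in WT (adjusted p = 0.00106) and −0.57 ± 0.13 in KO (adjusted p = 0.00135). The difference was not called (0.03 ± 0.18, adjusted p = 0.881). Ccl6 had 100 to 128 CPM in young WT, 158 to 176 in aged WT, 118 to 172 in young KO and 88.6 to 157 in aged KO. It rose by 0.56 ± 0.18 log2 in WT (adjusted p = 0.0155) and was not called in KO (−0.23 ± 0.18, adjusted p = 0.268). The rise in WT was not called without replicate 2 of young WT (adjusted p = 0.055) or of aged WT (adjusted p = 0.0534). At 12 months the level in KO was below that in WT (−0.43 ± 0.18 log2, adjusted p = 0.0471). That call was lost without any of 6 libraries, replicate 3 of young WT, all 3 of aged WT, replicate 1 of young KO and replicate 2 of aged KO, where the value dropped by most, to −0.19 (adjusted p = 0.252). It was also lost with TMM over all 12 libraries (adjusted p = 0.0592), in edgeR (adjusted p = 0.0728) and without a filter (adjusted p = 0.0802). Replicate 2 of aged KO had the lowest Ccl3, Ccl4, Ccl6 and Ccl9 of its group. It also had the lowest sum of 4 leukocyte markers, 57.5 CPM beside 82.8 and 89.6 in the others, and of macrophage and monocyte markers, 321 CPM beside 528 and 532. Leukocyte markers summed to 151 to 185 CPM in young WT, 111 to 125 in aged WT and 137 to 165 in young KO, and 4 of 4 fell with age in WT and 3 of 4 in KO. Their part in the fall of Ccl3, Ccl4 and Ccl9 was not tested.

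A further group was highest in aged WT. Cxcl17, Cx3cl1, Cxcl16, Ccl28, Ccl20 and Cxcl14 are ligands known from epithelial surfaces. They were gathered from several roles after their values were seen, so the direction they share in WT restates the choice and supports nothing. Cxcl17, a mucosal ligand, had 1, 3 and 0 reads in the libraries of young WT and 1, 4 and 0 in young KO, at or about the floor of 3 reads. It had 5.13, 6.30 and 6.04 CPM in aged WT and 0.280, 0.283 and 0.329 in aged KO. The aged groups stood above the young groups and did not overlap. The log2 change was 3.58 ± 0.12 in WT (adjusted p = 2.26e-11) and 0.57 ± 0.12 in KO (adjusted p = 0.000694), values that depend on the pseudocount and are no bound. At 12 months the log2 difference of KO from WT was −2.98 ± 0.12 (adjusted p = 1.25e-10).

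Cx3cl1, or fractalkine, a membrane-bound ligand of Cx3cr1, had 4.24, 4.68 and 4.08 CPM in young WT, 24.0, 26.5 and 28.1 in aged WT, 4.65, 4.23 and 3.65 in young KO, and 9.05, 7.91 and 6.67 in aged KO. The young groups overlapped, and aged WT lay above aged KO without overlap. It rose 6.05-fold in WT (2.47 ± 0.12 log2, adjusted p = 7.79e-10) and 1.89-fold in KO (0.84 ± 0.12, adjusted p = 2.85e-05). Cxcl16, a membrane-bound ligand of Cxcr6, had 21.7, 25.8 and 23.5 CPM in young WT, 93.2, 88.8 and 91.4 in aged WT, 21.3, 20.3 and 23.1 in young KO, and 32.1, 34.4 and 32.8 in aged KO. The order of groups was that of Cx3cl1. The rise was 3.85-fold in WT (1.93 ± 0.07 log2, adjusted p = 6.31e-11) and 1.53-fold in KO (0.61 ± 0.07, adjusted p = 5.26e-06).

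Ccl28, the mucosal ligand of Ccr10, had 4.32, 3.12 and 3.41 CPM in young WT, 13.5, 14.0 and 12.3 in aged WT, 2.92, 2.61 and 2.57 in young KO, and 4.72, 4.87 and 3.84 in aged KO. Its aged WT libraries stood far above the rest. It rose by 1.75 ± 0.12 log2 in WT (adjusted p = 3.15e-08) and 0.63 ± 0.12 in KO (adjusted p = 0.000418). Ccl20, the ligand of Ccr6, had 0.147, 0.205 and 0.168 CPM in young WT, 1.27, 1.56 and 1.06 in aged WT, 0.270, 0.194 and 0.129 in young KO, and 0.739, 0.354 and 0.561 in aged KO. Again the young groups overlapped and the aged groups did not. The rise was 1.41 ± 0.15 log2 in WT (adjusted p = 3.23e-06) and 0.58 ± 0.15 in KO (adjusted p = 0.00451), where edgeR gave 2.98 and 1.48. Cxcl14, an epithelial ligand, had 9.32, 10.4 and 10.03 CPM in young WT, 24.3, 22.7 and 23.2 in aged WT, 8.57, 10.7 and 9.72 in young KO, and 6.48, 8.98 and 7.53 in aged KO. It alone of the 31 rose in WT (1.20 ± 0.11 log2, adjusted p = 5.38e-07) and fell in KO (−0.32 ± 0.11, adjusted p = 0.0187). The KO call was lost without replicate 2 of young KO (adjusted p = 0.0854) or replicate 1 of aged KO (adjusted p = 0.0951), and its KO groups overlapped.

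**Figure D4:**
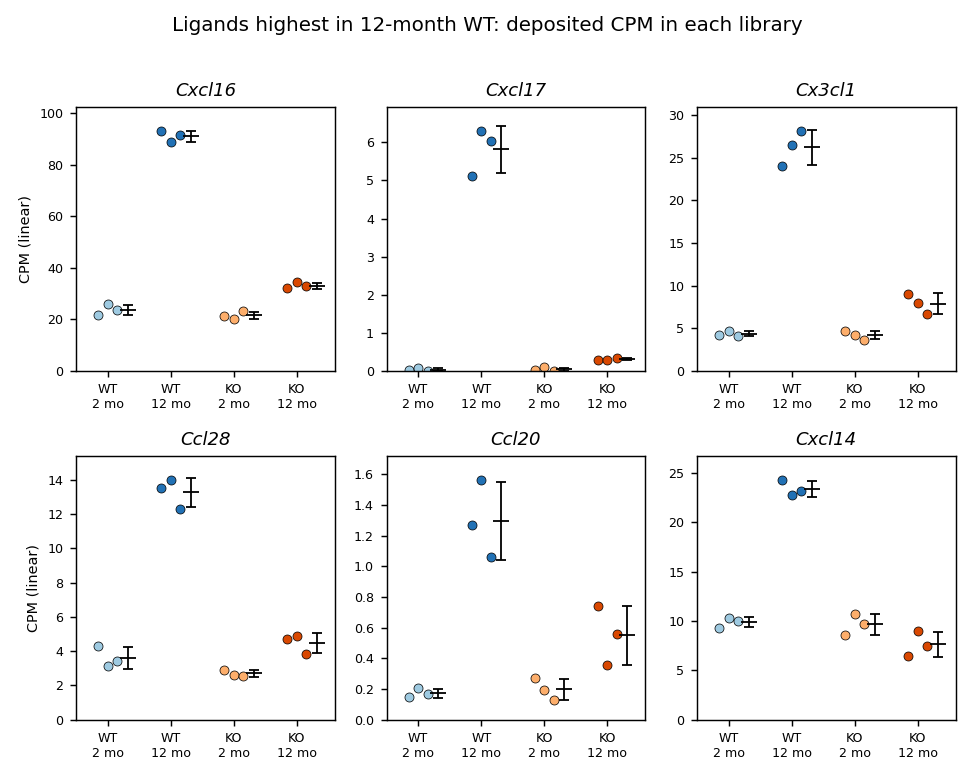
Deposited CPM (linear axes from 0) of 6 ligands in each of the 12 libraries, with the mean and SD of 3 beside the points. In every panel the 3 libraries of aged WT lie above all 9 others.

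All 5 luminal epithelial markers rose with age in WT, with a median of 3.50 log2, and all 4 basal markers rose. The luminal sum in aged KO was 357 to 377 CPM, close to that of young KO with 350 to 408, and 1 luminal marker rose and 1 fell with age in KO. The basal sum was 59.3 to 61.6 CPM in aged KO and 55.2 to 59.2 in young KO, and 2 of 4 basal markers rose and 1 fell there. Their part in the rise of the 6 ligands was not tested. The barrier ligands Ccl25, of the gut and thymus, and Ccl27a, of the skin, did not follow this group. Ccl25 had 4.31 to 5.42 CPM in young WT, 3.05 to 3.69 in aged WT, 4.68 to 5.27 in young KO and 3.40 to 4.21 in aged KO. Its log2 change was −0.40 ± 0.11 in WT (adjusted p = 0.00913) and −0.30 ± 0.11 in KO (adjusted p = 0.031). The fall in KO was not called without replicate 2 or 3 of young KO (adjusted p = 0.0997 and 0.0629) or replicate 2 of aged KO (adjusted p = 0.132), nor in the fit without a filter (adjusted p = 0.0551). Ccl27a had 0.577 to 1.05 CPM in the 12 libraries and was called in no comparison.

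Among the 6 tested receptors, Cxcr7 changed most with age in KO, while in WT its change was the smallest of the 6 and that of Ccr1 the largest. It is the older symbol, used by the file, of Ackr3, an atypical receptor that takes up Cxcl12 without signalling through G proteins. It had 5.37, 6.17 and 5.66 CPM in young WT, 6.61, 8.82 and 6.81 in aged WT, 3.27, 3.15 and 2.85 in young KO, and 43.0, 50.5 and 51.5 in aged KO. No 2 groups overlapped, and aged KO stood far above. The mean rose 15.6-fold in KO (3.76 ± 0.11 log2, adjusted p = 1.93e-11) and 1.29-fold in WT (0.34 ± 0.11, adjusted p = 0.0205), a difference of 3.43 ± 0.16 (adjusted p = 1.69e-09). The WT call was lost without replicate 1 or 3 of young WT (adjusted p = 0.0553 and 0.0533) and without replicate 2 of aged WT, where the change was 0.21 (adjusted p = 0.108). The endothelial markers Pecam1, Cdh5, Emcn and Tek, of cells known to express this receptor, all rose with age in KO, and their part in it was not tested. Cxcr4, the signalling receptor of Cxcl12, had 26.8, 26.9 and 25.0 CPM in young WT, 15.5, 16.7 and 16.3 in aged WT, 19.3, 18.5 and 22.3 in young KO, and 31.5, 29.5 and 34.4 in aged KO. The groups did not overlap. It fell by 0.68 ± 0.08 log2 in WT (adjusted p = 7.45e-06) and rose by 0.65 ± 0.08 in KO (adjusted p = 9.31e-06), the directions of Ccl2 and Ccl7.

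Ccr1, the receptor of Ccl3, Ccl6 and Ccl9, had 72.5, 62.7 and 56.3 CPM in young WT, 30.9, 29.3 and 28.4 in aged WT, 59.5, 59.7 and 64.0 in young KO, and 53.7, 48.6 and 57.8 in aged KO. The aged WT libraries lay below all others. The log2 change in WT was −1.09 ± 0.09 (adjusted p = 1.46e-07), and the change in KO of −0.20 ± 0.09 was not called (adjusted p = 0.0633). It was called in KO without replicate 1 or 3 of young WT (adjusted p = 0.0228 and 0.0405) or replicate 3 of aged KO (adjusted p = 0.0292). Ccr2, the receptor of Ccl2 and Ccl7, had 0.981, 0.738 and 0.820 CPM in young WT, 0.413, 0.409 and 0.487 in aged WT, 1.81, 1.21 and 1.16 in young KO, and 0.280, 0.354 and 0.213 in aged KO. It was lowest in aged KO, where Ccl2 was highest, and the groups did not overlap. Its log2 change was −0.52 ± 0.14 in WT (adjusted p = 0.00628) and −1.26 ± 0.14 in KO (adjusted p = 3.86e-06), and edgeR gave −0.86 and −2.36. Cxcr6, the receptor of Cxcl16, was called higher with age in both genotypes, from 0.411 ± 0.0799 to 0.722 ± 0.0789 CPM in WT (0.43 ± 0.13 log2, adjusted p = 0.0114) and from 0.425 ± 0.0425 to 0.781 ± 0.181 in KO (0.46 ± 0.13, adjusted p = 0.00592). Without replicate 1 of young WT the WT call was lost (adjusted p = 0.052). Cx3cr1, the receptor of Cx3cl1 on monocytes and macrophages, had 0.717 ± 0.208 CPM in young WT, 1.12 ± 0.126 in aged WT, 0.926 ± 0.161 in young KO and 0.823 ± 0.203 in aged KO. It was called higher with age in WT (0.43 ± 0.16, adjusted p = 0.0333), a call lost without replicate 3 of young WT (0.28, adjusted p = 0.159) or replicate 1 or 3 of aged WT (adjusted p = 0.0656 and 0.106). Its difference between genotypes of −0.54 ± 0.22 was not called (adjusted p = 0.053), but was without replicate 2 of young WT (adjusted p = 0.0304), replicate 3 of young KO (adjusted p = 0.0371) or replicate 1 of aged KO (adjusted p = 0.0415). It was also called with TMM over all 12 libraries (adjusted p = 0.0383) and in edgeR (adjusted p = 0.0428).

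The receptors of the ELR and interferon-type ligands were at the edge of detection. Cxcr2 had at most 4 reads and Cxcr1 at most 1 in any library. Cxcr3 had 98 reads over the 12 libraries, Cxcr5, the receptor of Cxcl13, had 78, and Ccr6, the receptor of Ccl20, had 4. Ccr10, the receptor of Ccl28, had 214 reads. Cxcl1, Cxcl2 and Cxcl5 were thus measured at 52.5 to 400 CPM in aged KO beside very few reads of Cxcr2.

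Below the filter, a small set had reads almost only in aged KO. Ccl22, a ligand of Ccr4 made by dendritic cells and macrophages, had 1, 0 and 0 reads in young WT, 2, 2 and 0 in aged WT, 1, 0 and 0 in young KO, and 65, 52 and 215 in aged KO. Ccl17, the other ligand of Ccr4, had 0, 1 and 0 reads, then 0, 0 and 3, then none in young KO, and 27, 23 and 133 in aged KO. Ccr7, the receptor by which dendritic cells reach lymph nodes, had 0, 1 and 0, then none in aged WT, then 0, 1 and 2, and 43, 37 and 203 in aged KO. The highest counts are those of replicate 3, the most deeply sequenced library, and all 3 libraries of aged KO exceeded every other library for all 3 genes. A count of 0 allows up to 3 reads. In a limma fit without a filter, in which 50.9% of 19648 genes were called with age in KO, all 3 rose in KO, with log2 changes of 2.06 for Ccl22 (adjusted p = 4.13e-08), 1.38 for Ccl17 (adjusted p = 1.28e-05) and 1.74 for Ccr7 (adjusted p = 2.65e-06). The 3 genes were gathered for having reads almost only in aged KO, so these calls restate the choice and support nothing. The sizes of the changes also depend on the pseudocount and are no bound. Ccl5, which attracts T cells and monocytes, had 5, 7 and 4 reads in young WT, 16, 4 and 6 in aged WT, 7, 3 and 4 in young KO, and 23, 29 and 77 in aged KO, with a log2 change of 0.92 in KO (adjusted p = 7.73e-06). The 4 dendritic cell markers in the table summed to 21.3 to 23.1 CPM in young WT, 11.2 to 12.1 in aged WT, 20.8 to 25.1 in young KO and 16.6 to 19.2 in aged KO. Among them, Flt3 had 25 reads in all, and Itgax and Zbtb46 passed the filter. Zbtb46 fell with age in KO (−0.45, adjusted p = 0.000499) and Itgax was not called (0.15, adjusted p = 0.481). Their part in these reads was not tested.

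The other untested members had at most 67 reads in any library. Besides those above, Ccl1 had 5 reads over all libraries, Ccl19 had 8, Ccl24 had 15, Ccr1l1 had 8, Ccr4 had 13, Ccr8 had 12, Xcr1 had 96, Ccr3 had 110 and Ccr9 had 133. The reads of Ccr8 were 2, 2 and 8 in aged KO and 0 elsewhere, so 2 of its 3 libraries there lie within the 3 reads that a count of 0 allows. In the fit without a filter, Cxcr3 and Cxcr5 were also called higher with age in KO, by 0.22 (adjusted p = 0.0251) and 0.34 log2 (adjusted p = 0.0249). The reads of Ccr4, the receptor of Ccl17 and Ccl22, reached 4 in a library.

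At 2 months, KO and WT differed in 10 members. The ELR ligands Cxcl1, Cxcl2 and Cxcl5 were lower in KO, by −0.84 ± 0.10 (adjusted p = 9.71e-05), −0.69 ± 0.09 (adjusted p = 0.000237) and −1.52 ± 0.17 log2 (adjusted p = 6.27e-05). They were higher in KO at 12 months, by 2.60 ± 0.10, 3.26 ± 0.09 and 0.90 ± 0.17 (adjusted p = 1.13e-10, 1.35e-11 and 0.000377), so the genotype difference had the opposite sign at the 2 ages. Cxcr7 went the same way, at −0.79 ± 0.11 (adjusted p = 0.000352) and 2.63 ± 0.11 (adjusted p = 2.64e-10). Ccl8 and Cxcr4 did so too, at −0.46 ± 0.06 (adjusted p = 0.00024) and −0.38 ± 0.08 (adjusted p = 0.00585) at 2 months and 1.05 ± 0.06 (adjusted p = 5.66e-09) and 0.95 ± 0.08 (adjusted p = 2.09e-07) at 12 months. All 4 endothelial and 5 mast cell markers were also lower in KO at 2 months, and their part was not tested. Ccl2 (−0.26, adjusted p = 0.0179) and Ccl7 (−0.17, adjusted p = 0.0367) were called lower in KO at 2 months on the deposited scale. With TMM factors recomputed over all 12 libraries, which shift the median of all genes in this comparison by 0.08 log2, neither was called (adjusted p = 0.141 and 0.407). The Ccl2 call was also lost without replicate 3 of young WT (adjusted p = 0.0845) or replicate 1 or 2 of young KO (adjusted p = 0.0577 and 0.0697). That of Ccl7 was lost without replicate 1 or 3 of young WT, replicate 1 of aged WT or any replicate of young KO (adjusted p = 0.0545 to 0.139), and in the fit of the 2 groups alone (adjusted p = 0.0863). All 3 tested skeletal muscle markers, whose sums are given above, were also lower in KO at 2 months, and their part in these differences was not tested. Cxcl10 (0.49 ± 0.13, adjusted p = 0.0176) and Ccr2 (0.48 ± 0.14, adjusted p = 0.035) were higher in KO at 2 months. The Cxcl10 call was lost without replicate 2 of young WT (adjusted p = 0.0757) or replicate 3 of young KO (adjusted p = 0.0785). That of Ccr2 was lost without replicate 2 or 3 of young WT (adjusted p = 0.122 and 0.0955), replicate 1 of aged WT (adjusted p = 0.0501) or replicate 1 of young KO (adjusted p = 0.156), as well as with a pseudocount of 0.1 (adjusted p = 0.0597) and in the fit of the 2 groups alone (adjusted p = 0.0867). Ccl11 and Ccl28 were not called (adjusted p = 0.0547 and 0.0643), but were called lower in KO without replicate 2 of young WT (adjusted p = 0.0246 and 0.0413) or replicate 3 of aged KO (adjusted p = 0.0442 and 0.0473). Ccl3 was called lower (−0.44) without replicate 2 of aged KO (adjusted p = 0.012) and in the fit of the 2 groups alone (adjusted p = 0.0141).

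Position along the chromosome went with direction in part. On chromosome 5, Cxcl5, Cxcl3, Cxcl1 and Cxcl2 rose in KO within 145 kb, while Pf4, platelet factor 4, lying 13.1 kb from the start of Cxcl5 and ahead of Cxcl3, fell in KO from 20.05 ± 5.97 to 3.27 ± 0.866 CPM (−2.44 ± 0.19 log2, adjusted p = 1.29e-07). Cxcl9 and Cxcl10, at 1562 and 1587 kb, rose less than the 4 ELR ligands. On chromosome 11, Ccl2, Ccl7, Ccl11 and Ccl8 lie within 80 kb of the start of Ccl2 and rose in KO, while Ccl9, Ccl3 and Ccl4 lie 1537 to 1627 kb from it and fell. Ccl5, at 1490 kb and below the filter, went against this order, with a rise in KO of 0.92 log2 in the fit without a filter. Ccl12 and Ccl6 were not called in KO. On chromosome 8, Cx3cl1 lies between Ccl22 and Ccl17, 26.5 kb from the start of Ccl22, and was highest in aged WT, while Ccl22 and Ccl17 had reads almost only in aged KO.

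**Figure D5:**
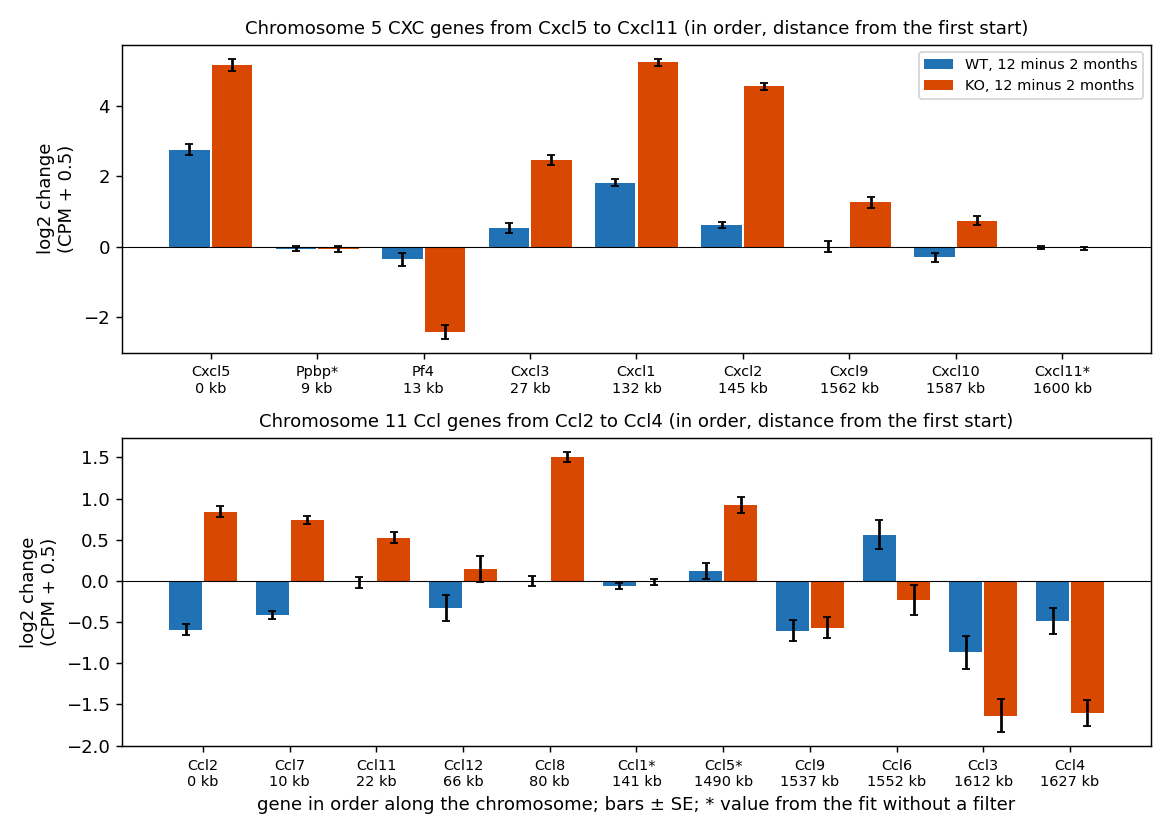
Age effects in WT (blue) and KO (orange) for chemokine genes in their order along chromosome 5 (top) and chromosome 11 (bottom), as differences of log2(CPM + 0.5) with bars of 1 SE and distances in kb from the first gene's start. In KO, Pf4 points down at −2.44 among ELR ligands that point up, and on chromosome 11 the genes up to Ccl8 point up while Ccl9, Ccl3 and Ccl4 point down and Ccl5, next to Ccl9, points up.

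Genes upstream and downstream of chemokines were taken from lists chosen with earlier results of these data known. Of all tested genes, 32.9% rose and 34.2% fell with age in KO, and 22.3% rose and 35.6% fell in WT. Of 11 genes that NF-kB induces as its own feedback, all 11 rose with age in KO and 10 rose and 1 fell in WT. The KO effect lay above the WT effect for 9 of 11, against 31.4% of all tested genes. Nfkbia, the inhibitor of NF-kB, had 61.9 ± 5.15 CPM in young WT, 74.5 ± 3.14 in aged WT, 47.6 ± 1.36 in young KO and 187 ± 23.7 in aged KO. Of 9 tested inflammatory cytokines, 8 rose and none fell with age in KO, while in WT 3 rose and 3 fell. Il6 had 3.89 ± 0.582, 5.31 ± 0.756, 6.88 ± 0.537 and 32.0 ± 16.2 CPM in the 4 groups in the same order, and Tnf 4.35 ± 0.560, 11.3 ± 0.741, 2.92 ± 0.329 and 8.70 ± 0.266. The rise of Tnf was not larger in KO by the test (0.15 log2, adjusted p = 0.408), unlike that of the ELR ligands. Il1a, the interleukin 1 made by epithelia, was not called with age in either genotype (−0.18 in WT, adjusted p = 0.49, and −0.39 in KO, adjusted p = 0.108). Of 4 chemoattractants outside the naming rule, Rarres2 (chemerin) and C3 rose in KO, by 4.06 (adjusted p = 4.99e-11) and 3.29 log2 (adjusted p = 4.83e-12), and Pf4 fell. Of 3 tested genes for atypical and chemerin receptors, Ccrl2 and Cmklr1, both of which bind chemerin, rose in KO, and Cmklr1 fell in WT. Of 19 genes that relay or end receptor signals, 8 rose and 6 fell in KO (73.7% called) and 5 rose and 7 fell in WT (63.2% called), near the 67.0% and 58.0% of all tested genes. Of 9 genes for proteases and glycan-binding proteins that act on chemokines, 5 rose and 2 fell in KO (77.8% called), also not far from that background. Tnfaip6, whose product binds chemokines, rose by 2.41 log2 (adjusted p = 4.68e-11), and the macrophage protease Mmp12 fell by 2.50 log2 (adjusted p = 3.28e-08).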

How the data were processed

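Total RNA of 12 mammosphere libraries was isolated with the PicoPure kit and made into libraries with the TruSeq Stranded total RNA kit, per the labels' protocols. Per the submitters' processing notes, the build was mm10 and the tools were TopHat2 2.1.0, Bowtie2 2.2.4, SAMtools 0.1.18 and HTSeq 0.6.1p1. The annotation, strand setting and multimapping rules were not given in the sources used here. Signal values as deposited are CPM from edgeR with TMM scaling, per the file headers. The TMM factors behind the values multiply to 1.000 over the 6 KO libraries but to 1.195 over all 12, where edgeR sets the product of a run to 1, so the columns do not come from a joint run and TMM over all 12 libraries was an alternative.

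Dividing by the CPM of 1 read recovered whole reads, within 0.1 of a whole number for 100% of values above 0. Floors of 3 reads cover counting error only. A linear model of 4 groups with 8 residual degrees of freedom was fitted to log2(CPM + 0.5) by limma-trend (limma 3.58.1, R 4.3.3) for genes averaging 0.5 CPM or more. It gave age in each genotype, genotype at each age and their interaction, with Benjamini-Hochberg adjustment over all genes tested. Alternatives were edgeR 4.0.16 on recovered reads, TMM over 12 libraries, pseudocounts of 0.1 and 1, no filter, a filter of 2 CPM, the 2 compared groups alone, a replicate block, and each library left out. The fit was tested on simulated data. Deposited gene starts count from 0 and are printed from 1. A member called with a log2 change of at least 1 is given in every library. Results for 2 genes are not reported here. The members and gene lists were chosen with earlier results of these data known.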

Additional observations from a re-analysis of the deposited data

Results flagged for a closer look

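The age effect differed between KO and WT, by the interaction test of the difference itself, for 25 of the 31 tested chemokine genes. Each value below is the change with age in KO less the change in WT, on the log2(CPM + 0.5) scale. Among CXC ligands it was larger in KO for Cxcl2 3.95, Cxcl1 3.44, Cxcl13 2.49, Cxcl5 2.42, Cxcl3 1.93, Cxcl9 1.26, Cxcl10 1.04 and Cxcl12 0.93. For CC ligands that attract monocytes and eosinophils it was larger in KO for Ccl8 1.51, Ccl2 1.43, Ccl7 1.16 and Ccl11 0.54. It was smaller in KO for the ligands that were highest in 12-month WT, Ccl20 −0.83, Ccl28 −1.12, Cxcl16 −1.32, Cxcl14 −1.52, Cx3cl1 −1.63 and Cxcl17 −3.01. These were gathered for being highest there, so the sign they share largely restates the choice. The macrophage-type CC ligands with a smaller or more negative effect in KO were Ccl3 −0.77, Ccl6 −0.79 and Ccl4 −1.12. Receptors with a difference were Cxcr7 3.43, Cxcr4 1.33, Ccr1 0.90 and Ccr2 −0.74. Of all genes tested, 57.7% were called in this comparison. No group had enough libraries for a check of single libraries that stand apart.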

How the results depend on the processing

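No called member result reversed its direction. Values that were not called changed sign in places, as did Ccl11 and Ccl8 with age in WT (−0.02 and −0.00, against 0.08 and 0.09 in edgeR) and Ccl27a with age in KO (−0.03 against 0.01). Of 155 member results, 134 kept their call under every alternative that tested them, and of 3003 alternative values 54 lost and 26 gained a call, with those from left-out libraries given above. Called members numbered 17 to 26 for age in WT, 19 to 32 for age in KO, 7 to 12 for genotype at 2 months, 20 to 32 for genotype at 12 months and 19 to 30 for the interaction. The ends came mostly from testing fewer genes (mean of at least 2 CPM) or more (no filter). Leaving out 1 library gave 20 to 24, 24 to 27, 7 to 12, 23 to 26 and 23 to 26. With TMM over all 12 libraries the counts were 23, 26, 8, 24 and 26, and with edgeR the same.

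Of 18 pairs of same-numbered libraries, 8 correlated above 0.1 in their deviations (−0.163 to 0.589). Pairs of replicates 1 and of replicates 3 were all positive, and 4 of 6 pairs of replicates 2 were negative. Not every pair passed 0.1, so the numbers were not taken to pair the libraries. The fit with a replicate block called 25, 26, 12, 25 and 26 members, and added Ccl11 and Ccl28 at 2 months, Cxcl10 and Ccl12 with age in WT, and Ccl12 in the interaction. Low reads limit Cxcl3, Cxcl9, Cxcl13, Cxcl17, Ccl20, Ccr2 and Cxcr6, whose fold sizes move with the pseudocount. For example, the age effect of Cxcl17 in KO was 0.32 to 1.58 log2 with pseudocounts of 1 and 0.1, and 2.83 in edgeR. TMM over all 12 libraries moved the median of all genes by less than 0.1 log2 in each comparison.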
